A study of Vigna radiata with 42 samples.

Results

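A group of 217 genes, of 28740 gene IDs in the table, was higher in pre-conditioned than in directly salted mung bean leaves after 48 h of salt, with only small differences allowed at 0 h and at 24 h. The members were chosen from measured values. On the scale of log2(value + 1), where value is the deposited normalized expression, the mean difference between treatments (T1 minus T2) had to be at least 1 at 48 h and between -0.5 and 0.5 both at 0 h and at 24 h. In addition, the lowest T1 library at 48 h had to lie above the highest T2 library. The difference at 48 h and the likeness at 0 and 24 h are therefore given as descriptions, with no test, and tests are kept to the libraries at 1, 3, 6 and 12 h, which the choice did not use.

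Leaves of Vigna radiata (mung bean, cultivar Weilv 9) were sequenced as poly(A) RNA, in 14 groups of 3 libraries. T1 seedlings were pre-conditioned: a first stay of 24 h in 100 mM NaCl was followed by 48 h of recovery in salt-free nutrient solution and then by a second 100 mM NaCl. T2 seedlings met 100 mM NaCl for the first time. First fully expanded true leaves were taken just before the final salt (0 h), early in it (1, 3, 6 and 12 h) and late in it (24 and 48 h), so T1 at 0 h is recovered leaf, T2 at 0 h is leaf that had met no salt, and every later group of both treatments was in salt. No unsalted leaves were sampled after 0 h, so a change over time holds salt, plant age and, except between 0, 24 and 48 h, time of day. The sources do not say whether a replicate is a plant or a pool of plants, so p-values measure the spread between these libraries only.

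A plant's first encounter with salt brings an osmotic stress within minutes to hours and, later, a stress from sodium that builds up in the leaves. The hormone abscisic acid, ion transporters and protective solutes take part in the response to both. Plants that have met a stress and recovered can answer the next one differently, with some genes induced faster, more strongly or for longer, which is called priming or stress memory. The files pair the gene IDs with no names, and 0 of 28740 IDs matched the reference gene list, so the members are described by ID, level and course and no function is given. For the same reason the tissue could not be checked against leaf marker genes.

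Single libraries at 48 h bear on the choice of members. T1 48 h replicate 3 held the lowest T1 value for 172 of the 217 members, and replicate 1 held the highest for 138. The median over members of the difference from the T2 48 h mean was 1.65 for T1 replicate 1, 1.40 for replicate 2 and 0.81 for replicate 3. Applied without T1 48 h replicate 3, the rule chose 424 genes, 208 of them among the 217, and without T1 48 h replicate 1 it chose 156, of which 143 were shared. In all 18 omissions of a single library at 0, 24 or 48 h the number ran from 156 to 424, and 59 members met the rule in every one of them. Signal of genes with a Pt prefix made up 0.24% to 0.79% of the T1 48 h libraries and 0.14% to 0.19% of the T2 48 h libraries, and its part in the result was not tested. Bulk RNA cannot tell more RNA per cell from more cells of a type.

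At 48 h the members stood at a median of 3.51 in T1 leaves and 1.93 in T2 leaves, both as log2(value + 1). Their median difference was 1.30, with quartiles of 1.11 and 1.65 and a range of 1.00 to 4.75. Most differences were moderate: 193 members lay below 2 and 24 at 2 or more, of which 4 reached 3. Of the 596 genes in the table with a 48 h difference of at least 1, 361 were also within 0.5 at 0 h, 246 within 0.5 at 24 h too, and 217 had no overlap between the treatments at 48 h. Just inside the limit, Virad09G0137400, Virad04G0098800 and Virad08G0086400 each had a difference of 1.00. Just outside it, Virad10G0061200 stood at 0.999463, Virad07G0147100 at 0.99357 and Virad04G0009300 at 0.992163. The limit therefore cuts through a continuous run of values.

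**Figure D1:**
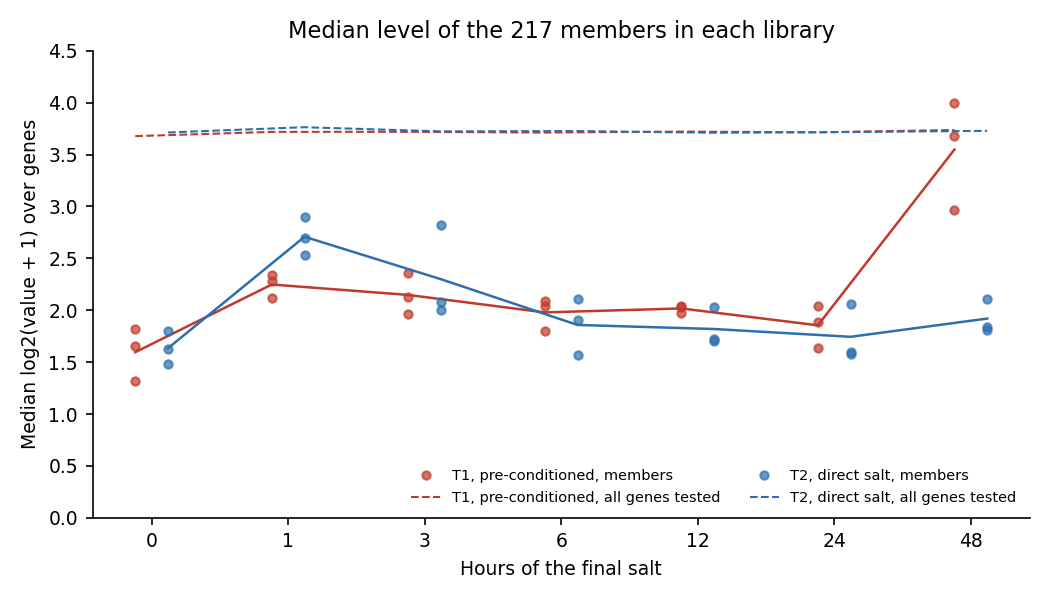
Median log2(value + 1) over the 217 members in each library (points) against hours of the final salt, T1 left of T2, with lines through the means of the 3 libraries and dashed lines for all genes tested. T1 libraries at 48 h lie at 2.96 or more and T2 libraries at 1.81 to 2.11, while at 1 h the T2 libraries, at 2.53 to 2.90, lie above those of T1, at 2.12 to 2.34.

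The members were mostly weakly expressed. At 0 h their median level was 1.61 in T1 and 1.60 in T2, against 3.68 and 3.70 for all 19753 genes tested, which reached a value of 1 in 3 or more libraries. In T2 at 48 h, 76 members had a mean value under 1, 87 between 1 and 10 and 54 over 10. The median T1 value at 48 h in these classes was 2.66, 12.6 and 59.0, against 0.290, 3.87 and 23.0 in T2. A mean value of at least 100 in T1 at 48 h was reached by 17 members. On this log scale a pseudocount of 1 understates the change of the weakest members, and it takes part in the choice: 272 genes met the rule with a pseudocount of 0.1, and 133 of them were members. The filter on low values passed 201 members, 16 of them only through the T1 48 h libraries, and 16 were not tested. Shares of the 201 at 1 to 12 h therefore include members that are low at those times. A filter and fit kept to the 24 libraries at 1 to 12 h left 178 members and 19335 genes in all. Its shares are given for the calls at 1 h and for the F tests of treatment and of time, and its counts for 12 h against 1 h. Shares of members without overlap between the treatments are given for the 201 only.

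The 48 h difference mostly lay with T1. Between 24 and 48 h the level was at least 0.5 higher in T1 and within 0.5 in T2 for 141 members, whose median change was 1.21 in T1 and 0.01 in T2. In 37 members both treatments were at least 0.5 higher at 48 h, by a median of 2.23 in T1 and 0.76 in T2. A smaller set of 17 members held its level in T1, with a median change of 0.06, while T2 stood lower by a median change of -1.11. Another 12 were higher in T1 and lower in T2, 6 were lower in both, and 4 fell in none of these classes. Against 0 h, the median change at 48 h was 1.43 in T1 and 0.07 in T2, and 209 of 217 members stood above their own 0 h level in T1, against 122 in T2. The median difference between treatments at 24 h was 0.10. T1 stood above T2 at that time in 144 of 217 members (66.4%, against 48.6% of all genes tested). At 0 h the median was -0.02, with 100 members above 0 (46.1%, against 44.4%). These changes and differences use the libraries that chose the members, and no test is given.

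**Figure D2:**
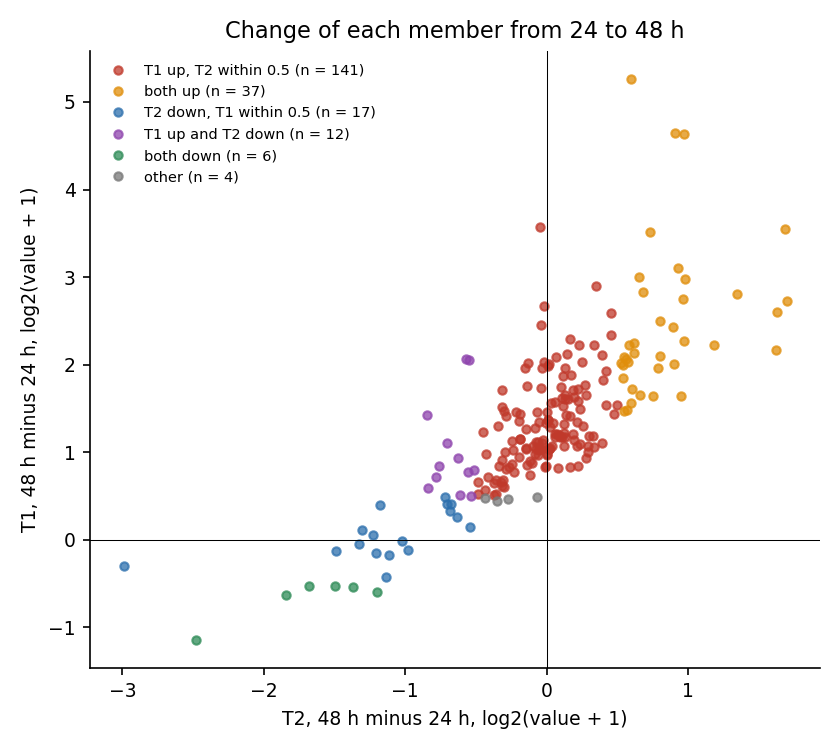
Change of each member from 24 to 48 h in T1 (vertical axis) against T2 (horizontal axis), as differences of mean log2(value + 1), with 1 point per gene and colours for the 6 classes. Most points, 141 of 217, lie above 0.5 for T1 and within 0.5 for T2, and 6 genes lie lower at 48 h in both treatments.

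The 4 largest differences belonged to genes with T2 values no higher than 6.08 at 48 h. Virad04G0053300 had values of 161, 18.2 and 32.8 in T1 at 48 h, against 0.809, 0.904 and 0.566 in T2, a log2 difference of 4.75. At all earlier times its values lay below 1 in both treatments. Its T1 libraries do not overlap those of T2, but replicate 1 is several times above the other T1 libraries. Virad03G0045900 had 184, 24.1 and 26.4 in T1 at 48 h, against 2.12, 1.70 and 2.33 in T2 (log2 difference 4.05). It also had an earlier course: at 12 h it stood at 6.60, 5.52 and 3.78 in T1 and at 11.1, 6.59 and 7.64 in T2, against 0.732, 1.39 and 0.655 in T1 and 1.06, 1.01 and 0.968 in T2 at 1 h. In limma's test across all genes it rose from 1 to 12 h by 1.70 in T1 (adjusted p = 0.00813) and by 2.196 in T2 (adjusted p = 0.00067).

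Virad07G0316100 had 44.1, 29.8 and 10.3 in T1 at 48 h, against 0.480, 0.630 and 1.44 in T2 (log2 difference 3.79). Virad08G0248800 had 164, 36.1 and 31.0 in T1 at 48 h, against 6.08, 4.46 and 3.51 in T2 (log2 difference 3.38). In all 4 genes T1 48 h replicate 1 was the highest library. Virad08G0248800 also had an early peak: at 1 h it stood at 31.8, 8.70 and 8.23 in T1 and at 32.7, 40.1 and 37.0 in T2, where it had been at 1.03, 0.446 and 0.734 at 0 h. The other 6 of the 10 largest differences with a mean T1 value of at least 5 were those of Virad04G0243900 (2.88), Virad11G0148300 (2.85), Virad05G0189500 (2.80), Virad07G0190900 (2.47), Virad07G0145700 (2.37) and Virad08G0325600 (2.36). Replicates were even in Virad11G0148300, at 10.3, 8.38 and 9.02 in T1 against 0.477, 0.268 and 0.528 in T2. They were uneven in Virad05G0189500, at 28.8, 5.38 and 1.72 in T1 against 0.172, 0.161 and 0.136 in T2, and in Virad08G0325600, at 24.6, 8.75 and 1.484 in T1 against 0.763, 0.301 and 0.986 in T2.

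The most abundant members differed by less. Virad04G0241800 had 4929, 2417 and 2628 in T1 at 48 h, against 686, 1426 and 1076 in T2 (log2 difference 1.63), but its libraries also ranged widely elsewhere, from 525 to 3399 in T2 at 12 h. Virad07G0239600 had 719, 752 and 517 in T1 at 48 h, against 289, 313 and 259 in T2 (1.19). For this gene the T1 level at 48 h lay near its T1 level at 6 h, of 656, 728 and 508, while T2 lay below its 24 h values of 437, 340 and 709. Virad11G0223500 had 541, 616 and 374 in T1 at 48 h, against 217, 230.3 and 235 in T2 (1.13), Virad05G0140900 had 326, 361 and 150.2 against 78.1, 65.9 and 108 (1.65), and Virad09G0050100 had 269, 279 and 134 against 94.7, 82.4 and 90.5 (1.27). In none of these 5 did the treatments overlap at 48 h, which the choice required.

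A few members show the T2 side of the difference. Virad04G0205200 stood at 60.2, 46.6 and 60.2 in T1 at 48 h, against 10.7, 7.93 and 12.9 in T2, where it had been at 85.9, 70.9 and 115 at 24 h (log2 change -2.99 in T2 and -0.30 in T1). Virad02G0042300 was lower at 48 than at 24 h in both treatments, by a log2 change of -1.14 in T1 and -2.48 in T2, and ended at 15.1, 11.2 and 6.80 in T1 against 4.28, 3.93 and 5.12 in T2. Virad02G0063800 ended at 1.93, 1.35 and 2.72 in T1 against 0, 0.439 and 0.114 in T2, after log2 changes of -0.63 and -1.85. For these genes the label of a rise at 48 h does not describe T1, and only the difference between the treatments meets the rule.

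The 24 libraries at 1 to 12 h had no part in the choice of members. Averaged over T1 and T2 in these libraries, 107 of 217 members (49.3%) had their highest level from 1 to 12 h at 1 h. The time was 3 h for 45 members, 6 h for 32 and 12 h for 33. Of all genes tested, 28.8% were highest at 1 h, and of the 201 members that passed the same filter, 101 were (50.2%). The difference between these shares was not tested. The next values also use libraries at 0 or 48 h that chose the members, and are descriptions. Over all 14 groups, 146 members were highest in T1 at 48 h, which the choice favours, and 38 were highest in T2 at 1 h (17.5%, against 12.4% of all genes tested), while none of the other 12 groups held more than 9. Against 0 h, the median change at 1 h was 0.39 in T1 and 0.66 in T2, against 0.00 and 0.01 over all genes tested. At 48 h, 167 members stood above their T2 1 h level in T1, by a median of 0.83 over all 217, and 60 lay within 0.5 of it.

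**Figure D3:**
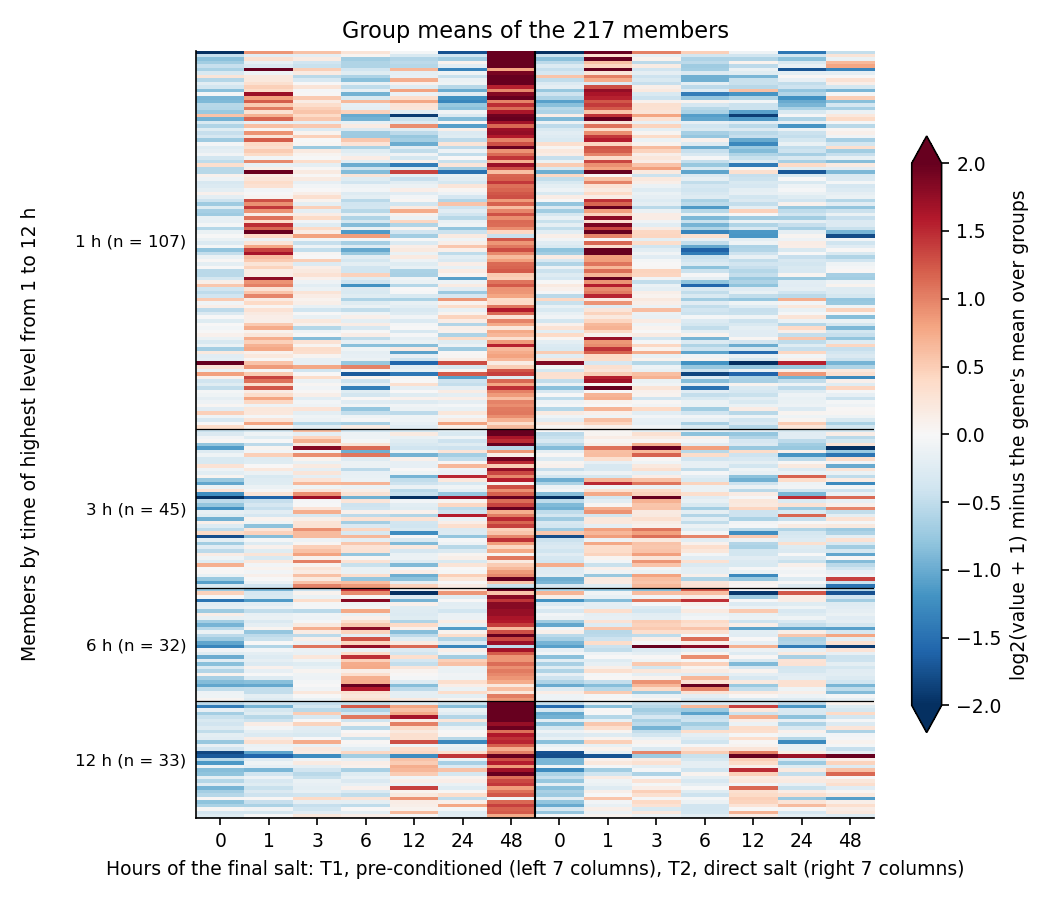
Mean log2(value + 1) of each member in the 14 groups, minus its mean over the groups, with T1 in the left 7 columns and T2 in the right 7, and rows sorted by the time of the highest level from 1 to 12 h and then by the 48 h difference. The T1 48 h column is high in nearly all rows, and many of the 107 genes highest at 1 h show a second band at T2 1 h that is paler at T1 1 h.

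At 1 h most members lay lower in T1 than in T2, opposite to 48 h. T2 1 h replicates 1 and 3 had 18913 and 18636 genes at a value of 1 or more, and no other library had more than 18117. The lower quartile of level over all genes tested was 2.35 in T2 at 1 h and at most 2.26 in any other group. What part this has in the members' 1 h difference, 1 h peak share and falls to 12 h was not tested. The median difference, T1 minus T2, was -0.26 (quartiles -0.53 and -0.03), against -0.04 over all genes tested, and 170 of 217 members lay below 0. It stayed below 0, between -0.40 and -0.16, under other pseudocounts and scalings, and between -0.33 and -0.21 with any library at 1 h left out. All T1 libraries lay below all T2 libraries in 67 of the 201 members tested, or 33.3%, against 12.4% of all genes tested, and all lay above in 5, against 10.5%. In limma's fit across all genes, 17 members were called lower in T1 (8.46%, against 5.28% of all genes) and 3 were called higher (1.49%, against 2.97%), at an adjusted p under 0.05. With filter and fit kept to the 24 libraries, 22 of 178 members were called lower (12.4%, against 5.03% of all genes) and 3 higher (1.69%, against 3.12%). An unadjusted p under 0.05 was reached by 55 members (27.4%, against 23.4%). Under quantile normalization it was reached by 40 of 202 members, against 4810 of 19703 genes. With library totals made equal the calls were 24 lower and 1 higher of 202 members, against 1539 lower and 251 higher of 19809 genes. Whether these shares differ from those of all genes was not tested. The lower calls over all 19753 genes, 1042 in the main fit, also fell in the alternatives that follow and are given in brackets. Leaving out T2 1 h replicate 1 reduced the lower calls among members to 6 (580), T1 1 h replicate 2 to 8 (773) and T1 1 h replicate 1 to 10 (668). A fit to these groups alone gave 4 (182). The number of higher calls was 0 when replicate 1 of either treatment was left out, and 1 when replicate 3 of either was.

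**Figure D4:**
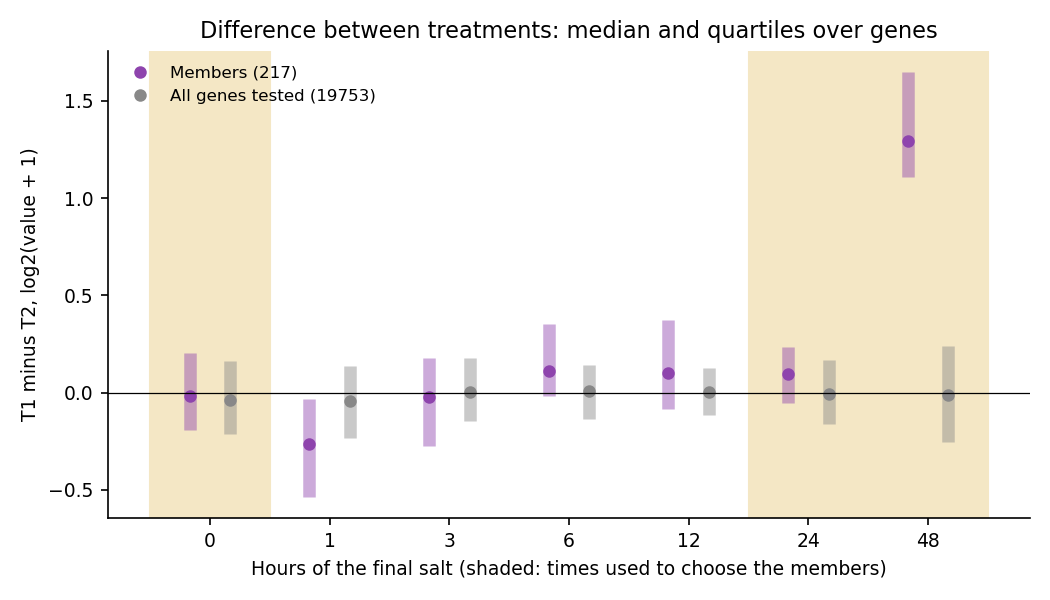
Median (points) and quartiles (bars) of the difference T1 minus T2 in log2(value + 1), over the 217 members and over all 19753 genes tested, against hours of the final salt. Times used to choose the members are shaded, and among the others the members' median lies lowest at 1 h (-0.26) and is 0.11 at 6 h.

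Virad11G0107600 had the largest 1 h difference among the members and joined a sharp early peak in T2 to the late level in T1. It was listed at 0 in all 6 libraries at 0 h. At 1 h it had values of 0.361, 1.39 and 2.32 in T1, against 12.9, 15.5 and 17.1 in T2. The treatments did not overlap, and the log2 difference was -2.86 (SE 0.20, limma adjusted p = 6.2e-11). By 3 h they were alike in range, at 0.834, 0.810 and 1.38 in T1 and 0.832, 1.18 and 0.644 in T2, and at 24 h no library was above 0.131. At 48 h it stood at 9.00, 6.29 and 5.47 in T1 against 0.524, 0.874 and 0.507 in T2. The 1 h call held in each of 16 alternatives, with differences from -3.68 to -2.51.

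Virad10G0154100 had 9.01, 16.2 and 29.4 in T1 at 1 h, against 38.1, 69.1 and 64.1 in T2, a log2 difference of -1.70 (SE 0.36, limma adjusted p = 0.00242, but 0.119 in a fit to the 1 h groups alone). The treatments overlapped at 3 h and again at 6 h, when it stood at 55.7, 46.3 and 46.4 in T1 and at 68.8, 76.4 and 43.7 in T2. The order was opposite at 48 h, at 85.8, 43.0 and 60.1 in T1 against 24.0, 35.6 and 21.8 in T2. Virad08G0172800 had 4.32, 3.26 and 3.53 in T1 at 1 h, against 13.6, 15.0 and 15.9 in T2 (log2 difference -1.75, SE 0.51, limma adjusted p = 0.0291). Its call was lost, at adjusted p from 0.0557 to 0.0803, without any library at 1 h other than T2 1 h replicate 2, and at 0.0666 with a pseudocount of 0.1. The 17 members called lower had differences from -2.86 to -0.61, and 8 of them were highest of all 14 groups in T2 at 1 h.

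The 3 members called higher in T1 at 1 h were Virad02G0042300, Virad08G0230600 and Virad11G0042200. Virad02G0042300 had 18.9, 10.2 and 15.3 in T1, against 6.51, 7.89 and 7.25 in T2, a log2 difference of 0.91 (SE 0.25, limma adjusted p = 0.0232). Both treatments were then far below their 0 h values of 39.4, 76.5 and 39.4 in T1 and 31.5, 34.1 and 43.9 in T2. Virad08G0230600 had 103, 82.3 and 92.7 in T1 at 1 h, against 38.8, 55.8 and 59.0 in T2 (0.86, SE 0.22, limma adjusted p = 0.011). Virad11G0042200 had 31.9, 34.5 and 35.7 in T1, against 23.6, 28.9 and 22.4 in T2 (0.44, SE 0.14, limma adjusted p = 0.0444). It was steady at other times before 48 h, from 26.7 to 41.3 in both treatments, and then stood at 174, 93.1 and 89.5 in T1 against 44.1, 40.0 and 44.3 in T2. All 3 calls were lost when replicate 1 of either treatment was left out. Those of Virad02G0042300 and Virad11G0042200 were also lost when replicate 3 of either treatment was, and that of Virad11G0042200 when T1 1 h replicate 2 was. A fit to the 1 h groups alone ended all 3 calls, at adjusted p of 0.107 for Virad02G0042300, 0.0845 for Virad08G0230600 and 0.141 for Virad11G0042200. Equal library totals ended those of Virad02G0042300 (0.0643) and Virad11G0042200 (0.186). The call of Virad11G0042200 was also lost without the 3 libraries high in Pt signal (0.0604) and with a replicate block (0.0643), so in 9 of 16 alternatives.

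From 3 to 12 h few members were called different between treatments. At 6 and 12 h, more members lay without overlap above T2 than below it. At 3 h limma called 0 members, with 24 at an unadjusted p under 0.05 (11.9%, against 15.1% of all genes), where 0.284% of all genes were called higher and 0.162% lower. The median difference was -0.02 and changed sign with the library left out, from -0.12 to 0.13. At 6 h limma called 0 members, with 19 at an unadjusted p under 0.05 (9.45%, against 12.4%), where 0.0405% of all genes were called higher and 0.0152% lower. The median was 0.11, and 26 members had all T1 libraries above all T2 libraries (12.9%, against 8.49%) and 2 all below (0.995%, against 7.85%). At 12 h the median was 0.10, with 46 members without overlap above (22.9%, against 11.3%) and 16 below (7.96%, against 9.48%). At that time 0 members were called higher (0.491% of all genes), 1 was called lower (0.344%), and 34 passed an unadjusted p of 0.05 (16.9%, against 9.3%). Without T2 12 h replicate 1, 1 member was called higher. A p that misses the threshold does not show that the treatments were alike.

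The member called at 12 h was Virad09G0172300, which was high in T2 and near its 1 h level in T1. It had 0.726, 0.851 and 1.08 in T1 at 12 h, against 22.6, 23.2 and 14.6 in T2, a log2 difference of -3.47 (SE 0.53, limma adjusted p = 0.00059). In T2 it rose from 1 to 12 h by 3.96 (SE 0.53, limma adjusted p = 2.36e-07), and its T1 change was 0.35 (adjusted p = 0.644). At 24 h it stood at 3.16, 19.4 and 19.4 in T1 and at 14.2, 9.52 and 18.4 in T2, and at 48 h at 64.6, 33.7 and 50.9 in T1 against 28.3, 29.1 and 10.6 in T2. The 12 h call held in each of 16 alternatives.

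**Figure D5:**
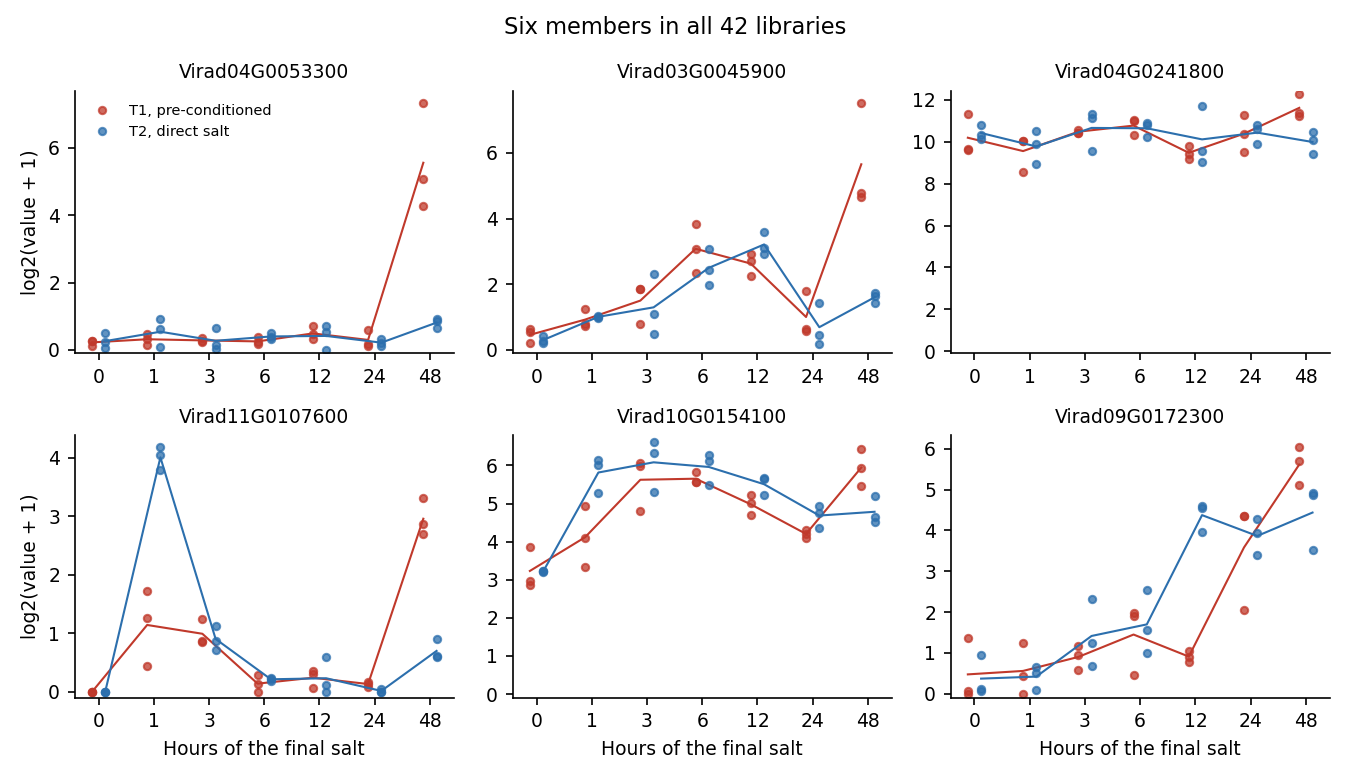
Level of 6 members as log2(value + 1) in all 42 libraries (points) against hours of the final salt, T1 left of T2, with lines through group means. The upper row has Virad04G0053300, Virad03G0045900 and Virad04G0241800, chosen for the size of the 48 h difference or level, and the lower row Virad11G0107600, Virad10G0154100 and Virad09G0172300, where T1 lay below T2 at 1 h, at 1 h and at 12 h but above it at 48 h.

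Many members differed between times within each treatment, as did many of all genes tested. Over 1, 3, 6 and 12 h, limma's F test called 106 of 201 members in T1 (52.7%, against 63.6% of all genes) and 138 in T2 (68.7%, against 68.6%). In the 24 libraries alone it called 108 of 178 in T1 (60.7%, against 62.9%) and 139 in T2 (78.1%, against 67.7%). The treatment difference over the 4 times was called in 18 members (8.96%, against 8.58%), or in 11 without T1 1 h replicate 1, and its change over time in 2 (0.995%, against 1.22%). In the 24 libraries alone the treatment difference was called in 20 of 178 members (11.2%, against 6.63%). None of these shares was tested against that of all genes. In T2, 96 members were lower at 12 h than at 1 h (47.8%, against 26% of all genes) and 10 higher (4.98%, against 21.5%). In T1, 53 were lower (26.4%, against 20.4%) and 16 higher (7.96%, against 20%), and 51 members were lower in both treatments. Kept to the 24 libraries, the fit called 98 of 178 members lower in T2 and 10 higher, against 5042 and 4152 of 19335 genes. For T1 it called 56 members lower and 17 higher, against 4010 and 3855 genes. Over all 217 members the median change from 1 to 12 h was -0.23 in T1 and -0.55 in T2. Over all genes tested it was -0.01 and -0.05. The T2 change was the lower one in 168 of 201 members. Neither this count nor that of members lower in both treatments was made over all genes. The difference between the T1 and T2 changes was tested only within the interaction over the 4 times.

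Scaling bears on the balance from 1 to 12 h. The deposited totals were 783218 to 809852 in the 12 h libraries and 956484 to 1155048 in the 1 h libraries. When library totals were made equal, 33 of 202 members were lower and 39 higher at 12 h in T1, against 1816 and 10755 of 19809 genes. In T2, 79 members were lower and 20 higher, against 2882 and 8800 genes. Under median-of-ratios scaling 52 of 201 members were lower and 16 higher in T1, against 3937 and 4088 of 19740 genes. Quantile normalization gave 52 and 17 of 202 members, against 3777 and 4427 of 19703 genes. Of the scalings tried, only equal totals reversed the T1 balance, and they shifted it over all genes, not only among the members. Leaving out T1 1 h replicate 2 or T1 12 h replicate 1 brought the T1 count of higher members to 9. Of the 96 members lower at 12 h in T2, 79 were among those highest at 1 h, and the 17 members called lower in T1 at 1 h included 13 of the 96. These overlaps are partly built in, because a high level in the same T2 1 h libraries favours all of these sets. Virad05G0140900, for example, had 111, 83.5 and 56.9 in T1 at 12 h against 382, 257 and 289 at 1 h, and 64.3, 70.9 and 58.1 in T2 at 12 h against 460.5, 419 and 309 at 1 h. Its log2 change was -1.90 in T1 (adjusted p = 7.26e-05) and -2.59 in T2 (adjusted p = 5.47e-07), both by limma.

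Members can also be described by the time of their highest mean level from 1 to 12 h, here called the early peak class. A class does not by itself show a marked peak. The rule held every 48 h difference at 1 or more, so likeness of the 48 h medians between these classes was largely fixed by the choice. Members highest at 1 h had a median 48 h difference of 1.31 and a median 1 h difference of -0.34. For those highest at 3 h the medians were 1.23 and -0.27, for 6 h 1.41 and -0.15, and for 12 h 1.16 and -0.24. The 38 members highest of all in T2 at 1 h had median levels of 3.68 in T1 and 4.46 in T2 at 1 h, and of 3.64 in T1 and 2.23 in T2 at 48 h, so their T1 levels at 1 and at 48 h were close. Virad06G0161100, the most abundant member of the 12 h class, stayed between 25.0 and 43.5 in T1 before 48 h. Its libraries at 1 and at 12 h overlapped in both treatments. At 48 h it stood at 91.5, 86.9 and 67.5 in T1 against 34.2, 44.5 and 40.3 in T2. Virad08G0086400, the most abundant member of the 3 h class, had 263, 344 and 523 in T1 at 3 h. It ended at 139, 128 and 128 in T1 against 57.1, 68.6 and 70.8 in T2.

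The mirror rule asks for a level lower in T1 at 48 h by at least 1, no overlap between the treatments at 48 h, and a difference within 0.5 at 0 and 24 h. The 119 genes that meet it had a median difference of -0.01 at 1 h and 0.30 at 3 h, where the 217 members had -0.26 and -0.02. No test was made between the sets. The mirror genes had a median level at 0 h of 3.65 in T1 and 3.84 in T2.

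The members were spread over all numbered ID prefixes. They made up between 0.474% (prefix 05, 10 of 2109 IDs) and 0.952% (prefix 08, 43 of 4516) of the IDs with a given number, and none of the 44 Mt or 26 Pt IDs was a member. A few carried neighbouring numbers: 13 pairs lay within 5 places of each other in ID order, 4 of them next to each other. Among these were Virad04G0241800 and Virad04G0242200, with 48 h differences of 1.63 and 1.82, and Virad02G0204000 and Virad02G0204300, with 2.04 and 1.86. The last pair rests largely on T1 48 h replicate 1, with 18.1 and 15.5 there, against 0.726 to 1.07 in the other T1 libraries and at most 0.118 in T2. The sources do not say whether ID order follows position in the genome or whether such genes share reads.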

How the data were processed

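The authors deposited 1 table with a normalized expression signal per gene and library, called TPM in its name. Its columns sum to between 783218 and 1228250, so a scaling between libraries was applied that the sources do not describe. Per the submitters' processing notes, fastp 1.0.1, HISAT2 2.2.1, featureCounts and DESeq2 1.48.2 were used; the sources name neither genome build nor annotation. Read depth is unknown, so no counting interval is given.

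The 217 members, and the rules for naming genes, were chosen with earlier results of these data known. Named members are the 10 largest 48 h differences with a mean T1 value of at least 5, the 5 highest T1 48 h levels, up to 3 called each way at 1, 3, 6 and 12 h, 3 genes either side of the limit, the highest member of each early peak class, and the 3 largest T2 falls and T1 rises from 24 to 48 h. Pairs of neighbouring IDs were named after their values were seen. Values were compared as log2(value + 1). The 19753 genes that reached a value of 1 in 3 or more libraries were fitted with limma 3.58.1 in R 4.3.3, 1 mean per group over all 42 libraries, with a robust variance trend, Benjamini-Hochberg adjustment over all genes and two-sided tests called at 0.05. With 3 against 3 libraries an exact permutation test cannot give a p under 0.1. The fit was tested on simulated data. Tables and figures used Python 3.11.15, pandas 2.3.3 and matplotlib 3.10.9.

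Alternatives were pseudocounts of 0.1 and 0.5, no filter, median-of-ratios, quantile and same-total scaling, a replicate block, fits to the 24 libraries at 1 to 12 h or to only the groups compared, omission of the 3 libraries highest in Pt signal, and of each library in turn. Other pseudocounts and scalings for single 48 h differences were added after seeing the data.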

Additional observations from a re-analysis of the deposited data

Results flagged for a closer look

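In 2 members the course from 1 to 12 h differed between T1 and T2 by limma's F test of the interaction of treatment and time. For Virad11G0107600 the adjusted p was 7.48973e-08, and over 34 alternatives it ran from 2.1507e-09 to 0.00451824. For Virad09G0172300 the adjusted p was 0.0166959. Leaving out T1 12 h replicate 2 gave 0.0515, T2 12 h replicate 1 gave 0.0562 and T2 12 h replicate 2 gave 0.0589. It was 0.0698 with a replicate block and 0.232 with a pseudocount of 0.1, so the call was lost in these 5 of 34 alternatives. Both genes had a T2 level above T1 at 1 time before the 48 h difference of opposite sign, at 1 h for Virad11G0107600 and at 12 h for Virad09G0172300.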

How the results depend on the processing

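Of 372 recomputed counts and medians, 335 stayed close to the value reported, by a loose limit. A count was judged by its ratio to the reported one and a median by the spread between libraries. Membership of 156 or 272 in place of 217 passed as close. So did the 3 h median that changed sign, from -0.12 to 0.13, and counts that stayed at 0. Only the groups compared gave 0 higher and 4 lower members at 1 h, and 1 higher and 2 lower at 12 h. The same total for every library gave 1 higher at 1 h, 3 lower at 3 h, 1 higher at 12 h, 39 higher and 33 lower at 12 than 1 h in T1 and 20 higher in T2. Over all genes that setting gave 10755 higher and 1816 lower at 12 than 1 h in T1. Quantile normalization gave 1 higher and 2 lower at 12 h (111 and 100), and the 24 libraries alone 1 higher at 12 h (56). A pseudocount of 0.1 gave 9 lower at 1 h (861) and 1 interaction (179). With 1 library left out, counts ran from 0 to 3 higher and 6 to 17 lower at 1 h, 0 to 2 lower at 3 h, 0 to 1 higher at 12 h, 11 to 25 for T1 against T2 over the 4 times, 1 to 3 interactions, and 9 to 15 higher at 12 than 1 h in T1, and the number of members ran from 156 to 424. The causes were not tested.

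Same-numbered T1 and T2 libraries mostly did not deviate together: 4 of 21 pairs had a correlation over 0.1 (range -0.45 to 0.55, median -0.02). At 6 h, replicates 2 and 3 did, at 0.46 and 0.55. The numbers are not taken as pairs in the main fit. The replicate block gave 11 lower members at 1 h, 1 at 3 h and 2 at 12 h. Over all genes it gave 786, 4 and 44, against 1042 at 1 h in the main fit. For T1 against T2 over the 4 times it called 10 members and 871 genes, against 1694 genes in the main fit. It called 1 interaction among members and 131 over all genes. The block ended the 1 h call of Virad11G0042200 (limma adjusted p = 0.0643). Read depth is unknown, which leaves differences of members near 0 without a counting error.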
